A study of Mus musculus with 6 samples.

Results

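The genes described here are 10 transcriptional outputs and feedback inhibitors of the ERK pathway: the PEA3 factors *Etv1*, *Etv4* and *Etv5*, the phosphatase genes *Dusp4*, *Dusp5* and *Dusp6*, and *Spry1*, *Spry2*, *Spry4* and *Spred1*. They were chosen by gene name, as a set picked because *Etv4* rose about 11.6-fold with close replicates in the same comparison, and they are 10 of 51499 loci in the count table. All 10 passed the filter on low counts, which 14499 loci passed. Their values are therefore a description of this contrast, and no p-value is given for them.

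RNA was sequenced from mouse embryonic fibroblasts (MEFs) 72 h after transfection with a control siRNA (Scr) or an siRNA against *Yme1l*, the gene of a protease in the mitochondrial inner membrane, with 3 cultures in each group. Both groups are labelled WT MEFs and differ by label in the siRNA. The methods describe WT MEFs that are a clone with both loxP-flanked *Yme1l* alleles (*Yme1l* loxP/loxP) kept after exposure to Cre recombinase, without saying that these libraries came from that line, and how cultures and libraries were divided into batches is not stated in the sources used here. The sample labels call the cells 3T3-immortalized, whereas the methods describe immortalization of that line with SV40 large T antigen, and these values do not decide between them. The Scr libraries held 45205207, 37260605 and 41929579 counts and the Yme1l siRNA libraries 43630145, 42161756 and 41342446. Scr cultures 1 and 2 differed by a chi-square per degree of freedom of 9.7 in their counts. Scr culture 3 stood further apart, at 69.9 from culture 1 and 55.2 from culture 2. Pairs of Yme1l siRNA cultures lay from 26.1 to 66.4. The p-values below cover the spread between 3 cultures of each group.

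Growth factors that bind receptor tyrosine kinases activate RAS, which passes the signal through the kinases RAF, MEK and ERK. Active ERK leads to transcription of immediate targets, among them the PEA3 factors of the ETS family, and of its own inhibitors. The DUSP phosphatases remove phosphate from ERK and related kinases, and Sprouty and Spred proteins act further up, between receptor and RAF.

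*Yme1l1*, which encodes YME1L, had 171, 171 and 171 CPM (counts relative to the scaled library size) in the Scr cultures and 31.6, 23.4 and 45 CPM in the Yme1l siRNA cultures. All 3 treated cultures lay far below the controls, as their labels say, and culture 3 was the highest of them. The log2 fold change was -2.36 (standard error 0.20, edgeR adjusted p = 3.87e-05).

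*Etv4*, a PEA3 transcription factor (locus XLOC_008479, GRCm38 chromosome 11, 101769742 to 101785371), had 3.46, 3.02 and 2.94 CPM in the Scr cultures and 35.6, 39.7 and 34.2 CPM in the Yme1l siRNA cultures. The groups were far apart and the 3 treated cultures lay close together. Its fitted log2 fold change was 3.54 (standard error 0.11), which ranked 67 from the highest among all 14499 loci tested. Among the 11544 loci whose mean log2 CPM was 1 or more it ranked 33. *Etv5*, its close relative (chromosome 16, 22381309 to 22439719), had 17.7, 14.3 and 10.6 CPM in Scr and 36.9, 35.3 and 33.4 CPM after Yme1l siRNA. The groups did not overlap, and the controls were more spread than the treated cultures. The log2 fold change of *Etv5* was 1.31 (standard error 0.16).

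*Etv1*, the remaining PEA3 gene (chromosome 12, 38779380 to 38870484), went the other way, with 2.19, 2.55 and 3.67 CPM in Scr and 1.31, 1.43 and 1.14 CPM after Yme1l siRNA. Its groups did not overlap, and Scr culture 3 was the highest. The log2 fold change was -1.12 (standard error 0.24), at 48 to 155 counts in a library. Part of the *Etv1* and *Etv5* transcripts is shared with the pseudogenes *Gm5454* and *Gm4798*, so the division of reads between them is uncertain. *Gm5454* held 7 to 27 counts in a library and *Gm4798* 1 to 16.

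Of the 10 genes, 6 were called higher and 2 lower by edgeR at an adjusted p under 0.05, and 28.4% of all loci tested were called higher, 29.6% lower and 58.0% in either direction. The groups did not overlap in CPM at 8 of the 10 genes and at 65.4% of all loci tested. Nothing is read from these counts, since the genes were selected on this contrast. The median log2 fold change of the 10 genes was 0.56 and that of all loci tested 0.01. Fewer cells expressing a gene and less RNA per cell cannot be told apart in these bulk libraries.

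*Dusp4*, a phosphatase gene of the nuclear ERK inhibitor DUSP4 (chromosome 8, 34807297 to 34819894), had 11.2, 11.7 and 12.5 CPM in Scr and 36.5, 31.7 and 32.0 CPM after Yme1l siRNA. Every treated culture exceeded every control, and the log2 fold change was 1.50 (standard error 0.09). *Dusp6*, which encodes a cytoplasmic ERK phosphatase, had 27.5, 25.5 and 41.2 CPM in Scr and 44.5, 56.8 and 53.3 CPM after Yme1l siRNA. Here Scr culture 3 came close to the lowest treated culture, and the log2 fold change was 0.71 (standard error 0.18). *Dusp5*, the gene of another nuclear ERK phosphatase, ranged from 33.7 to 39.3 CPM in Scr and from 45.1 to 53.4 CPM after Yme1l siRNA, and the log2 difference was 0.41 (standard error 0.09). *Dusp5* overlaps a transcript on the other strand that is not among the loci used here, and whether counting used the strand is not stated in the sources used here.

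*Spry4*, a Sprouty gene, was near the limit of detection in the controls, with 2, 4 and 8 counts in Scr and 44, 66 and 71 counts after Yme1l siRNA. The summed counts of 14 and 181 gave a ratio of 12.1 after scaling, with a 95% interval from 7.02 to 22.6 that covers counting error only. *Spry4* passed the filter on low counts through the treated group alone, so its fold is not compared with that of *Etv4*. *Spry2* had 16.4, 16.9 and 19.7 CPM in Scr and 18.1, 22.8 and 18.8 CPM after Yme1l siRNA, so its groups overlapped, and the log2 difference was 0.17 (standard error 0.12). *Spry1* had 31, 42 and 36 counts in Scr and 43, 41 and 25 counts after Yme1l siRNA. These groups overlapped as well, and the *Spry1* locus also overlaps *Gm42922* on the other strand, which held 2 counts or fewer in each library. *Spred1*, an inhibitor of RAS signalling, had 91, 85.9 and 75.8 CPM in Scr and 65.3, 64.6 and 66.1 CPM after Yme1l siRNA. All treated cultures lay below all controls, and the log2 fold change of *Spred1* was -0.37 (standard error 0.08).

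Levels of different genes were compared as CPM per kb of merged exons. In Scr, *Etv5* led its family at 3.46 ± 0.859, before *Etv4* at 1.01 ± 0.0912 and *Etv1* at 0.211 ± 0.0581 (SD, n = 3 each, CPM per kb). After Yme1l siRNA *Etv4* led at 11.8 ± 0.929, before *Etv5* at 8.57 ± 0.427 and *Etv1* at 0.0971 ± 0.0109 (SD, n = 3 each, CPM per kb). On this scale the order of *Etv4* and *Etv5* was exchanged in all 3 treated cultures, whereas by counts not divided by length *Etv4* stayed below *Etv5* in Yme1l siRNA culture 1 (48.3 and 49.97% of the family's counts). *Etv4* made up 20, 21 and 24.8% of the family's summed level in the Scr cultures and 55.8, 59.5 and 57.2% in the Yme1l siRNA cultures. The summed level of the 3 PEA3 genes was 4.68 ± 0.889 in Scr and 20.4 ± 1.15 after Yme1l siRNA (SD, n = 3 each, CPM per kb), a ratio of 4.36.

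For the 3 phosphatase genes the summed level was 29.3 ± 1.82 in Scr and 48.5 ± 2.78 after Yme1l siRNA (SD, n = 3 each, CPM per kb), a ratio of 1.65. Per kb, *Dusp5* was the most abundant of them in each culture, whereas by counts not divided by length *Dusp6* exceeded it in Scr culture 3 and in Yme1l siRNA cultures 2 and 3. The length-scaled share of *Dusp4* went from 14.7 ± 0.555% to 25.3 ± 3.43% (SD, n = 3 each). The share of *Dusp6* was 33.9 ± 7.0% in Scr and 33.8 ± 2.43% after Yme1l siRNA (SD, n = 3 each). The Sprouty and Spred genes summed to 21.2 ± 0.309 in Scr and 19.8 ± 1.18 after Yme1l siRNA (SD, n = 3 each, CPM per kb). *Spred1* and *Spry2* made up most of that sum, and *Spry4* 0.115 ± 0.0728% of it in Scr and 1.48 ± 0.366% after Yme1l siRNA (SD, n = 3 each).

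**Figure D1:**
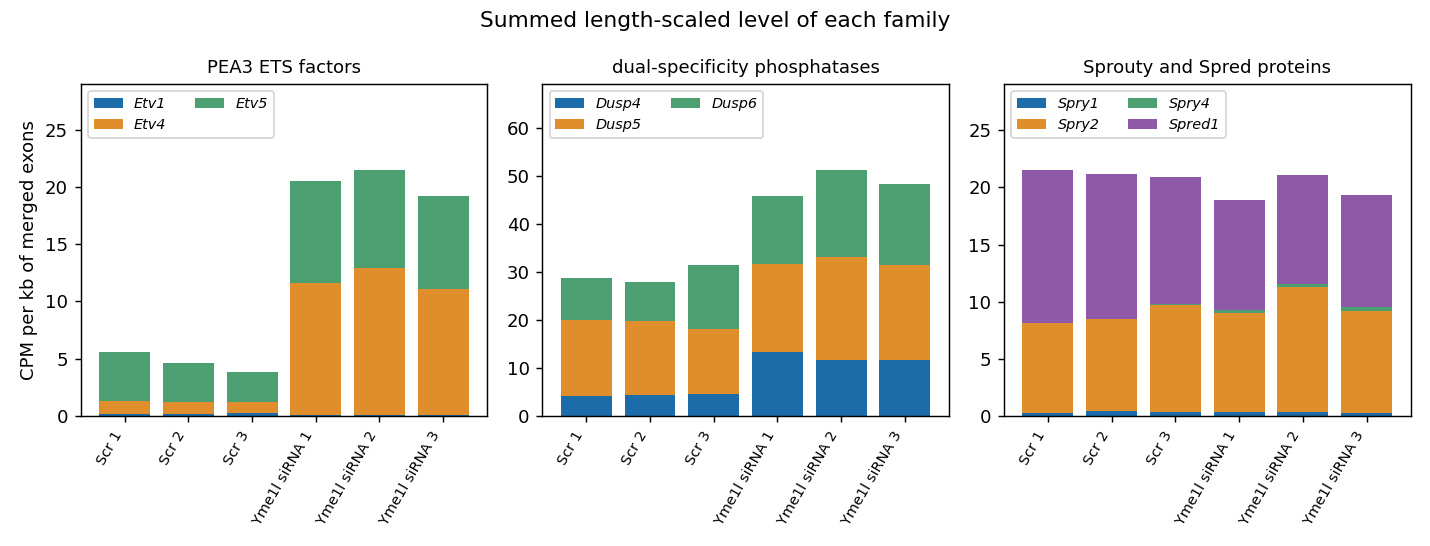
Level in CPM per kb of merged exons, stacked by gene, in each of the 6 libraries for the PEA3 factors, the phosphatases and the Sprouty and Spred genes. The PEA3 sum lies from 3.82 to 5.59 in Scr and from 19.2 to 21.5 after Yme1l siRNA, and the Sprouty and Spred sum from 18.9 to 21.5 across all libraries.

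Promoter sequences from RefSeq (GRCm38.p6, 250 bases before to 50 after a start) matched 7 of the 10 genes in 9 windows, and *Etv4*, *Dusp4* and *Spry4* had no entry. Both strands were searched for the octamers TGAATGAA, TGAATGGA, TCAATGAA and TCAATGGA, which the repressor CIC is known to bind, for the ETS site CCGGAAGT and for the AP-1 site TGANTCA. The octamers were in 2 of the 9 windows and in 3.84% of 32851 windows of all genes, and neither the ETS site (3.89% of all windows) nor the AP-1 site (7.81%) was in any of the 9. The windows with an octamer are printed because they hold the only matches among the 9, with those bases in capitals. They belong to *Dusp6*, chr10:99262981-99263280 on the plus strand, and *Spry2*, chr14:105896770-105897069 on the minus strand.
Dusp6: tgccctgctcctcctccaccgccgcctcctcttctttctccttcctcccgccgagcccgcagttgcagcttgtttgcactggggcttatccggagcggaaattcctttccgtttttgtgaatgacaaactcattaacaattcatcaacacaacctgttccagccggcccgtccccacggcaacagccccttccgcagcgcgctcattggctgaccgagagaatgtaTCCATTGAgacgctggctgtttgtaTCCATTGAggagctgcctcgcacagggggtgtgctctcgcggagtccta
Spry2: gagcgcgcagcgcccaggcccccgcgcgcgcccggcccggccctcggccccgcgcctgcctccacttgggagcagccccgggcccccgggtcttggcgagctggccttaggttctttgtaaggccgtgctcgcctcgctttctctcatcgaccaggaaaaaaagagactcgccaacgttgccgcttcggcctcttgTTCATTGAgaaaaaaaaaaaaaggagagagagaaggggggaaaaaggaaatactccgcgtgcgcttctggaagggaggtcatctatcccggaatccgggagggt
*Dusp6*, whose level differed between the groups, has 2 matches on the reverse strand and *Spry2*, whose groups overlapped, has 1. A match describes these letters and is not evidence of binding.

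The PEA3 factors have known regulators: CIC represses their genes together with ATXN1 and ATXN1L, and the ubiquitin ligase of COP1 and DET1 degrades the proteins. Of these 5 regulator genes, 4 fell and 1 rose, beside 29.6% of all loci tested that fell and 28.4% that rose. *Cic* had 239, 217 and 277 CPM in Scr and 147, 145 and 154 CPM after Yme1l siRNA, for a log2 difference of -0.71 (standard error 0.10, edgeR adjusted p = 0.000323). The treated cultures of *Cic* were all below the controls. *Atxn1* fell by 0.61 and *Atxn1l* by 0.56 on the log2 scale (standard errors 0.14 and 0.09, edgeR adjusted p = 0.00565 and 0.001). *Cop1*, listed as *Rfwd2*, fell by 0.32 (standard error 0.06, edgeR adjusted p = 0.00234). *Det1* rose by 0.34 (standard error 0.11, edgeR adjusted p = 0.0324), and 4 of the 6 fits without a single culture did not call it, where its change was 0.30 without Scr replicate 1, 0.27 without Scr replicate 2, 0.34 without Yme1l siRNA replicate 1 and 0.30 without Yme1l siRNA replicate 3.

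The other genes of the pathway were grouped by role, and the counts of each group stand beside 28.4% of all loci tested called higher, 29.6% called lower and a median log2 fold change of 0.01. Among growth factor ligands, 7 of 21 tested rose and 4 fell, with a median log2 fold change of 0.18. Of those called higher, *Igf2* had 2, 3 and 2 counts in Scr and 20, 26 and 13 after Yme1l siRNA. *Fgf21*, also called higher, had 6, 3 and 10 counts in Scr and 14, 14 and 23 after Yme1l siRNA. *Igf2* and *Fgf21* passed the filter on low counts through the treated group alone, so nothing is read from their calls. *Hbegf*, a ligand of the EGF receptor, rose from 45.1 ± 1.19 to 88.6 ± 7.72 CPM (SD, n = 3 each, edgeR adjusted p = 2.86e-05). *Fgf7* and *Nrg1*, ligands of FGF and ERBB receptors, rose by 1.80 and 1.62 on the log2 scale (standard errors 0.15 and 0.16, edgeR adjusted p = 3.25e-05 and 7.17e-05). In contrast, *Fgf18* had a log2 fold change of -1.55, *Pdgfd* of -1.35 and *Pdgfa* of -0.50 (standard errors 0.25, 0.27 and 0.09, edgeR adjusted p = 0.000935, 0.00291 and 0.00177).

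Among receptors and adaptors, 7 of 25 rose and 11 fell, with a median log2 fold change of -0.12. The insulin receptor substrates *Irs1* and *Irs2* rose by 1.50 and 1.37 on the log2 scale (standard errors 0.08 and 0.14, edgeR adjusted p = 7.02e-06 and 8.49e-05), and the adaptor *Crk* by 0.61 (standard error 0.06, edgeR adjusted p = 9.14e-05). *Fgfrl1*, an FGF receptor without a kinase domain, had 79.7, 83.0 and 86.1 CPM in Scr and 20.9, 23.1 and 23.9 CPM after Yme1l siRNA (edgeR adjusted p = 3.26e-06). The docking protein gene *Gab1* and the RAS exchange factor gene *Sos2* fell by 1.57 and 0.91 on the log2 scale (standard errors 0.15 and 0.10, edgeR adjusted p = 5.09e-05 and 9.22e-05).

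Among genes of the cascade from RAS to ERK, its scaffolds and the kinases that ERK activates, 4 of 25 rose, 8 fell and 13 were not called, with a median log2 fold change of 0.02. *Mapk3*, which encodes ERK1, fell from 126 ± 2.43 to 59.8 ± 5.22 CPM (SD, n = 3 each, edgeR adjusted p = 2.04e-05). The RAS-related genes *Mras* and *Rras* fell by 1.59 and 0.98 on the log2 scale (standard errors 0.10 and 0.08, edgeR adjusted p = 1.04e-05 and 3.69e-05). *Hras*, *Map2k2*, the gene of MEK2, and *Rps6ka1*, the gene of the ERK-activated kinase RSK1, rose by 0.49, 0.46 and 1.03 (standard errors 0.07, 0.07 and 0.10, edgeR adjusted p = 0.000431, 0.000508 and 5.24e-05).

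Outside the 10 genes, 8 of 27 negative regulators rose and 11 fell, with a median log2 fold change of -0.01. *Dusp9*, a further ERK phosphatase gene, rose from 7.43 ± 0.389 to 24.8 ± 2.19 CPM (SD, n = 3 each, edgeR adjusted p = 7.94e-06). *Errfi1*, an inhibitor of the EGF receptor, and *Dusp3* rose by 1.23 and 0.69 on the log2 scale (standard errors 0.07 for each, edgeR adjusted p = 8.22e-06 and 8.59e-05). *Lztr1*, which promotes RAS degradation, and the RAS GTPase activators *Rasa1* and *Rasa3* fell by 1.06, 0.92 and 0.64 (standard errors 0.08, 0.10 and 0.07, edgeR adjusted p = 1.91e-05, 0.000143 and 0.000112).

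Of 23 other ERK-responsive loci, 13 rose and 1 fell, with a median log2 fold change of 0.61, beside 28.4% of all loci tested that rose, 29.6% that fell and their median of 0.01. The other 9 were not called, and the groups overlapped at each of them. They were *Egr1*, *Egr2*, *Fos*, *Junb*, *Ier2*, *Phlda1*, *Vgf*, *Arc* and *Tnc*, named here outside the rule for the other named genes. *Epha2*, a receptor kinase gene, had 28, 26.4 and 35.0 CPM in Scr and 132, 136 and 117 CPM after Yme1l siRNA (edgeR adjusted p = 7.43e-06). *Maff* and *Ccnd1*, the genes of a small MAF factor and of cyclin D1, rose by 2.76 and 1.04 on the log2 scale (standard errors 0.20 and 0.07, edgeR adjusted p = 1.75e-05 and 1.34e-05). *Egr3* was the gene called lower, at a log2 difference of -1.93 (standard error 0.23, edgeR adjusted p = 0.000209). Without Scr replicate 1, without Scr replicate 3 or without a filter on low counts, 2 of these genes were called lower.

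Among 16 other ETS factors tested, 1 rose and 7 fell, with a median log2 fold change of -0.20. Without Scr replicate 1, without Yme1l siRNA replicate 3 or with the replicate number as a block, 2 rose. *Etv3* rose by 0.35, and *Etv6* and *Elk3* fell by 0.36 and 0.37 on the log2 scale (standard errors 0.08, 0.07 and 0.08, edgeR adjusted p = 0.00551, 0.00234 and 0.00568). *Elk1* fell by 0.75 (standard error 0.06, edgeR adjusted p = 2.32e-05) at a locus joined with *Uxt*, and reads of both are counted together. *Fgf2*, *Igf2*, *Fgfr2* and *Elk4* are likewise at loci joined with other names. Exons of several named genes, among them *Ccnd1*, *Rasa1*, *Elk3* and the marker *Csf1r*, overlap a gene on the other strand. As for *Dusp5*, whether counting used the strand is not stated.

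**Figure D2:**
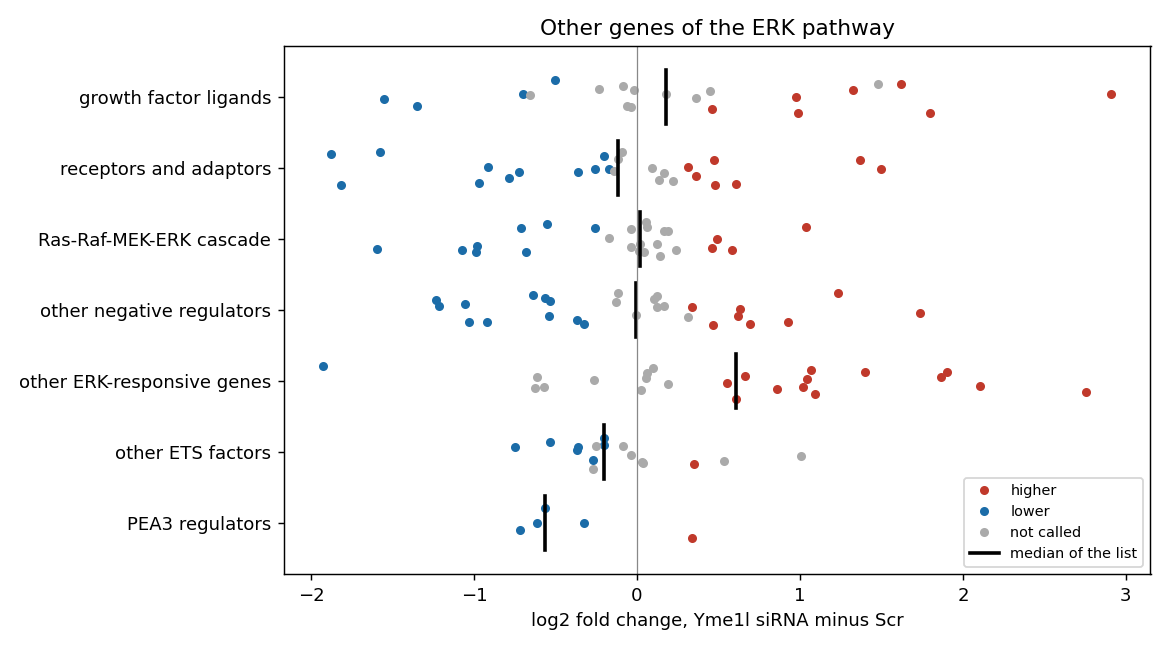
Log2 fold change (Yme1l siRNA minus Scr) of each tested gene in 7 lists of the ERK pathway, with genes called higher in red, lower in blue and not called in grey, and a black line at the median of each list. Medians run from -0.56 for the PEA3 regulators to 0.61 for the other ERK-responsive genes, beside 0.01 over all loci tested.

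The loci most like *Etv4*, by the root mean square difference of log2 CPM over 6 libraries after subtracting each locus's Scr mean, included *Gpnmb*, *Ap1s3*, *Cgn* and *Neurl3*. Their differences were 0.24, 0.32, 0.33 and 0.35 among 11543 candidates, which had a mean log2 CPM of at least 1 over the 6 libraries. In Scr, *Ap1s3* had 0.388 to 0.531 CPM, *Cgn* 0.416 to 0.693 and *Neurl3* 0.443 to 0.616. These genes reached that mean through the treated cultures, so the candidates favour loci that rose. *Gpnmb*, a membrane glycoprotein gene, had 2.42, 2.30 and 2.23 CPM in Scr and 24.8, 35.1 and 17.6 CPM after Yme1l siRNA. The likeness ranking used the contrast that chose *Etv4*.

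Markers of cell types were also counted, and the calls among them stand beside 28.4% of all loci tested called higher and 29.6% called lower. The 9 fibroblast markers summed to 31160, 27430 and 24180 CPM in Scr and 16860, 16660 and 13950 CPM after Yme1l siRNA, with 6 of 7 tested lower and *Col1a1* the most abundant, while *Thy1* had 1 count or fewer in each library. The 5 macrophage markers summed to 163 to 179 CPM in Scr and 242 to 255 CPM after Yme1l siRNA, with *Csf1r* the most abundant, while *Adgre1* was at 0 and *Ptprc* at 3 counts or fewer in each library. Of the 3 macrophage markers tested, *Csf1r* was called higher, and *Cd68* and *Lyz2*, with log2 fold changes of -0.13 and -0.34, were not called. The 5 epithelial markers summed to 0.194 CPM or less in Scr and 0.947 to 1.33 CPM after Yme1l siRNA. *Krt8*, their most abundant gene and the only 1 of the 5 tested, had 1 count in each Scr library and 24, 31 and 23 after Yme1l siRNA. It passed the filter on low counts through the treated group alone, so nothing is read from its call. *Krt8* was at least 8.05-fold higher against 3 counts per Scr library. The 5 endothelial markers summed to 3.79 to 4.08 CPM in Scr and 5.68 to 7.81 CPM after Yme1l siRNA, led by *Tek*, with *Emcn* at 0. Of the 3 endothelial markers tested, *Tek* rose by 0.61 on the log2 scale (edgeR adjusted p = 0.0123) and *Pecam1* was not called. *Kdr*, named after its value was seen, had 3, 9 and 7 counts in Scr and 43, 43 and 38 counts after Yme1l siRNA. *Kdr* passed the filter on low counts through the treated group alone, so nothing is read from its call. The 5 myogenic markers summed to 3.30 to 3.77 CPM in Scr and 2.37 to 3.36 CPM after Yme1l siRNA, all from *Des*, which was not called, with *Myod1*, *Myog*, *Pax7* and *Myf5* at 0. The 4 neural markers found among the loci summed to 45.5 to 49.5 CPM in Scr and 53.4 to 60.5 CPM after Yme1l siRNA, led by *Map2*, with *Sox10* at 0. *Tubb3*, also on the neural list, had no locus under that name. Of the 3 neural markers tested, *Map2* rose from 46.4 ± 2.30 to 55.2 ± 3.94 CPM (SD, n = 3 each, edgeR adjusted p = 0.0188) and *Gfap* was not called. The call of *Map2* was lost without Scr replicate 2 (log2 fold change 0.21, edgeR adjusted p = 0.0819) and without Yme1l siRNA replicate 1 (0.19, edgeR adjusted p = 0.0927), and its adjusted p lay between 0.0103 and 0.0927 in the settings tried. *Sox2*, named after its value was seen and given without a p-value, fell from 1.52 ± 0.0737 to 0.501 ± 0.0663 CPM (SD, n = 3 each). The part of these shifts in the results above was not tested.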

How the data were processed

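The authors mapped paired-end reads of poly(A)-selected, stranded libraries to mm10 with HISAT2 2.0.4 and assembled transcripts with StringTie 1.3.3, with Cufflinks and Cuffdiff 2.2.1 also named in the submitters' processing notes. The authors deposited raw counts per locus, without normalization, for 6 libraries that held 37260605 to 45205207 counts. Their own comparison, which holds levels per group, fold changes and p-values, was not used.

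Counts were scaled with TMM and compared by the quasi-likelihood test of edgeR 4.0.16 in R 4.3.3, without covariates, on 14499 loci that passed filterByExpr (minimum 10 counts, 15 in total), with Benjamini-Hochberg adjustment and a threshold of 0.05. Standard errors were derived from the log2 fold change and the square root of its F value. The biological coefficient of variation was 0.131. DESeq2 1.42.0, limma-voom (limma 3.58.1), other scalings and filters, a stricter threshold, a replicate block and leaving out each library were alternatives. Merged exon lengths and positions came from GENCODE annotation of GRCm38. Named genes were all 10 members and the PEA3 regulators, in each list the 3 called genes of lowest adjusted p in each direction, the most abundant marker of each cell type and the 5 loci most like *Etv4*, with a pseudocount of 0.05 CPM, of which 1 is not reported here. The members and lists were chosen with earlier results of these data known.

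The edgeR step was tested on simulated data with known changes, over several seeds. Unadjusted p-values of unchanged genes were calibrated. The share of false calls was above the nominal level in the simulation with few changed genes and gene-wise dispersions, and below it with a number of changed genes closer to that called here. The rule that stopped the test at a high share of false calls was replaced after 1 seed exceeded it. Tables and figures were made with pandas 2.3.3, numpy 2.4.6, scipy 1.17.1 and matplotlib 3.10.9 in Python 3.11.15.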

Additional observations from a re-analysis of the deposited data

How the results depend on the processing

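With a mean of at least 50 counts, *Spry4* and *Spry1* were not tested, and 5 of the 10 genes were higher. Nothing is read from the calls of these genes, which were selected on this contrast. With each of the 6 libraries left out in turn, the log2 fold change of *Etv4* ranged from 3.48 to 3.61, that of *Dusp6* from 0.58 to 0.95 and that of *Spry4* from 3.17 to 4.14, the highest without Scr replicate 3, which held most of its Scr counts. These fits called 3451 to 4133 of all loci higher and 3616 to 4312 lower. Over all settings the counts were 2949 (adjusted p under 0.01) to 4258 (no filter on low counts) higher and 3225 (adjusted p under 0.01) to 4460 (replicate block) lower.

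An adjusted p under 0.01 left 7 receptors and adaptors lower, 4 other ETS factors lower and 0 PEA3 regulators higher, as a stricter threshold must lower counts. Without a filter on low counts, 2 ERK-responsive genes were lower and 0 PEA3 regulators higher. Leaving out 1 library gave 1 to 2 ERK-responsive genes lower (2 without Scr replicate 1 or 3), 1 to 2 other ETS factors higher (2 without Scr replicate 1 or Yme1l siRNA replicate 3) and 0 to 1 PEA3 regulators higher. The cause was not tested. Of the named genes, *Det1* lost its call in 6 settings, *Map2* in 3 and *Tek* in 1. The edgeR adjusted p of *Det1* ranged up to 0.116 without Scr replicate 2.

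Without division by exon length, shares within a family moved by 1 SD of the 3 cultures or more for *Etv1* (14.5% in Scr and 1.77% after Yme1l siRNA), *Etv4* (15.7% and 49.99%), *Spry1* (0.888% and 0.955%), *Spry2* (17.3% and 22.7%) and *Spred1* (81.7% and 74.7%), and after Yme1l siRNA for *Etv5* (48.2%), *Dusp5* (36.6%) and *Dusp6* (38.3%), since the genes differ in length. In Scr the shares of *Dusp5* and *Dusp6* went to 46.5% and 38.8%, a shift of similar size that stayed within their larger SD. *Etv4* then exceeded *Etv5* after Yme1l siRNA on average and in cultures 2 and 3, but not in culture 1.

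With the replicate number as a block, 4227 loci were higher and 4460 lower, 6 and 2 of the 10 genes, and 2 other ETS factors were higher. Deviations from group means correlated at 0.04, 0.12 and 0.19 between libraries of the same number and from -0.18 to 0.09 between libraries of different numbers. Whether libraries of the same number share more than the number is not stated in the sources used here.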

Other observations

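The nearest tested loci on each side of the 10 genes, a measure added after the data were seen, were 20 in number, of which 9 rose, 3 fell and 8 were not called, with a median log2 fold change of 0.16, beside 28.4% of all loci tested called higher, 29.6% called lower and a median of 0.01. They lay up to 5778278 bases away (*Slitrk5* beside *Spry2*), and only those of *Etv4* and *Dusp4* are described here, outside the rule for the other named genes. Beside *Etv4*, *Dhx8*, an RNA helicase gene 2384 bases away, was among those that rose, at a log2 difference of 0.19 with a standard error of 0.06 (edgeR adjusted p = 0.027). Beside *Dusp4*, *Tnks* at 6566 bases fell by 0.64 on the log2 scale (standard error 0.11, edgeR adjusted p = 0.00148). On their other sides, *Rpl27-ps2* at 154130 bases from *Etv4* and *B930018H19Rik* at 166981 bases from *Dusp4* rose by 1.90 and 2.44 on the log2 scale (standard errors 0.40 and 0.39, edgeR adjusted p = 0.00378 and 0.000805).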
